A study of Homo sapiens with 2 samples.

Results

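The E2F family of transcription factors and the RB pocket proteins were examined in U87, an established human glioblastoma cell line, after transfection with HOXD9 siRNA or with control siRNA. The genes were the 8 E2F genes, E2F1 to E2F8, and the pocket protein genes RB1 and RBL1, 10 genes in all. They were taken by name, and every probe set annotated to a single one of them was used, which gave 21 of 54613 probe sets. RNA was taken on Day 2 after transfection at 50 nM, and the siRNA duplex on the treated array was HOXD9 siRNA-2. There was 1 Affymetrix U133 Plus 2.0 array for HOXD9 siRNA and 1 for control siRNA, so each ratio compares 2 arrays and no SD, p-value or test between conditions can be given. The cells were a transiently transfected pool of a single line, and a lower signal in such a pool cannot be told apart from fewer cells in the cell cycle phase that transcribes the gene.

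E2F factors bind DNA in front of genes needed for entry into S phase. E2F1, E2F2 and E2F3 activate these genes, whereas E2F4 and E2F5 mostly repress them in complex with pocket proteins. E2F6, E2F7 and E2F8 repress without pocket proteins. The pocket proteins RB and p107, encoded by RB1 and RBL1, bind E2F factors until cyclin-dependent kinases phosphorylate them. In glioblastoma this control of cell cycle entry is commonly lost through deletion of CDK inhibitor genes, amplification of CDK4 or mutation of RB1.

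Values are the authors' deposited linear signal intensities, and ratios are log2 of the HOXD9 siRNA signal over the control siRNA signal. The median signal over all probe sets was 18.3 with HOXD9 siRNA and 22.5 with control siRNA, and centering each array on its own median adds 0.30 to every log2 ratio. Both values, as deposited and centered, are therefore given where a reading turns on them. Probe sets with a mean signal of at least 19.8, the median over all probe sets, were kept, and 19 of the 21 were among them. As background, the highest of 27 Bacillus subtilis control probe sets read 18.4 with HOXD9 siRNA and 11.4 with control siRNA, and the higher value was used for both arrays. No replicate error exists here, and the disagreement between probe sets that read the same gene was used as a yardstick. Pooled over 6081 genes its SD was 0.41 on the log2 scale. With the kept probe sets split by signal into 3 classes of equal size, the SD among probe sets of a gene within the same class was 0.63 in the dimmest, 0.28 in the middle and 0.17 in the brightest class. HOXD9, the target of the siRNA, read 5.58 with HOXD9 siRNA and 19.7 with control siRNA on one probe set. As deposited, the background bounds this difference at 1.07-fold or more. The bound is smaller than the shift between the array medians, so after centering it no longer shows a lower HOXD9 signal. The dimmer HOXD9 probe set read 11.4 with HOXD9 siRNA and 9.33 with control siRNA, within the background on both arrays. GAPDH, a glycolytic enzyme used as reference, had log2 ratios from -0.03 to -0.02 as deposited. Of 10 genes listed as markers or possible markers of this glioma line, 9 were measured and 6 of them (VIM, CD44, NES, CHI3L1, FN1 and S100A6) lay above the background on both arrays, while GFAP, OLIG2 and SOX2 did not. Of 12 measured markers of blood, epithelial, endothelial, neural and muscle cells, 4 lay above it on both arrays, namely EPCAM, KRT8, PECAM1 and SYT1. PECAM1, an endothelial gene, read 40.3 with HOXD9 siRNA and 43.4 with control siRNA, and SYT1, a neuronal gene, 30.3 with HOXD9 siRNA and 91.8 with control siRNA. The summed signal of the 12 markers was 207 with HOXD9 siRNA and 271 with control siRNA. The part of these signals in the results was not tested.

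E2F2 and E2F8, 2 of the 10 genes, were lower by more than 2-fold in HOXD9 siRNA-transfected cells on their brightest probe sets, and no gene of the family was higher by that much. Among all 11624 genes with a kept probe set, 4.95% passed 2-fold in the lower direction and 0.516% in the higher one. Once both arrays were centered, E2F2 was the 1 of the 10 genes still lower by more than 2-fold, against 2.31% of all genes, and again 0 were higher, against 1.17%. RBL1 and RB1 were the next lowest, and on their brightest probe sets E2F3 to E2F7 lay nearer to the median of all genes than the SD of 0.41 between probe sets. As deposited, E2F1 was the 1 gene whose brightest probe set read higher with HOXD9 siRNA. After centering, only 5 of the 10 genes were below 0. The brightest E2F1 probe set was so by mean signal. With control siRNA alone it read 154 and the other E2F1 probe set 157. The median log2 ratio was -0.33 over the 10 genes and -0.25 over all genes, or -0.03 and 0.05 after centering. The family as a whole thus lay close to the median gene, with members from -1.49 (E2F2) to 0.38 (E2F1) as deposited. Other probe sets of E2F2 and E2F1 did not give these values, as described below.

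**Figure D1:**
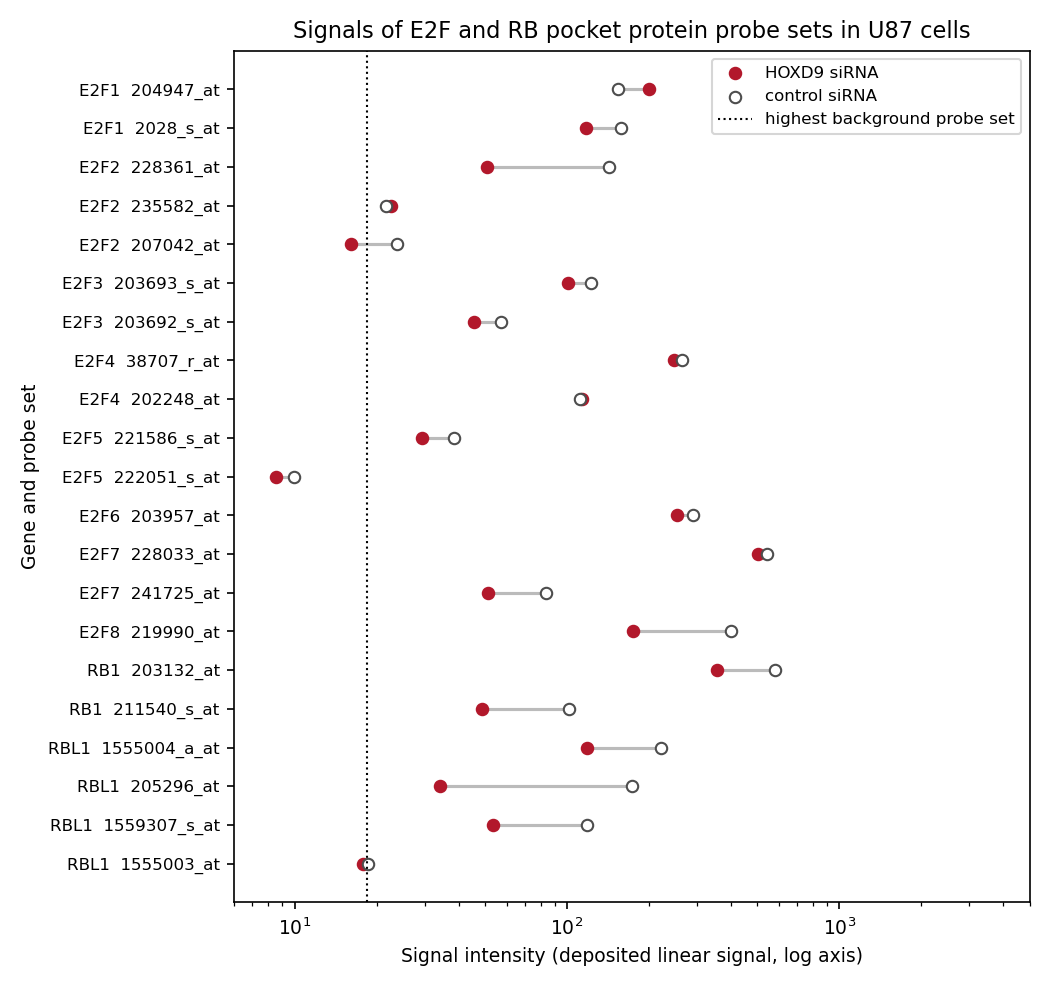
Each row is 1 probe set of an E2F or pocket protein gene, and the x axis is its deposited signal intensity on a log scale, with filled points for HOXD9 siRNA, open points for control siRNA and a dotted line at the highest background probe set, 18.4. The long gaps are those of RBL1 (34.2 with HOXD9 siRNA and 173 with control siRNA on probe set 205296_at), E2F2 (50.7 with HOXD9 siRNA and 143 with control siRNA on 228361_at) and E2F8 (175 with HOXD9 siRNA and 401 with control siRNA), while E2F4, E2F6 and the brighter E2F7 probe set have nearly overlapping points.

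Several E2F genes are themselves under E2F control in proliferating cells, and the sequences in front of their starts show where such sites can lie. The RefSeq promoter table of GRCh38.p14 held windows that were matched to 8 of the 10 genes, all but E2F5 and E2F8. The 250 bases before each annotated start were searched on both strands for the E2F-type octamers TTTCCCGC, TTTCGCGC, TTTGCCGC and TTTGGCGC. Of the 8 genes, 4 held a match, and E2F1 and RBL1 held 2 each. Of 35116 windows of the same length over all genes, 2.79% held at least 1 match and 0.122% at least 2. Counted per gene, as for the family, 5.74% of the 9519 genes with a kept probe set and a window held at least 1 match and 0.284% at least 2. TTTCCCGC was found in 1.39% of these windows, TTTCGCGC in 0.439%, TTTGCCGC in 0.49% and TTTGGCGC in 0.55%. The 4 windows with a match are printed from 5′ to 3′ on the strand of the gene, ending at the base before the start, with matches in capitals. None of the matches overlapped each other.
E2F1, chr20:33686386-33686635, minus strand: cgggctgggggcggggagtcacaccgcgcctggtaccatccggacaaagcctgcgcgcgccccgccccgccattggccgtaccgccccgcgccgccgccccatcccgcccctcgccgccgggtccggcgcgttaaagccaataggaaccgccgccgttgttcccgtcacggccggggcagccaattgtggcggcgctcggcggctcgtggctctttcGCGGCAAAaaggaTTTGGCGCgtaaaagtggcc
E2F2, chr1:23531234-23531483, minus strand: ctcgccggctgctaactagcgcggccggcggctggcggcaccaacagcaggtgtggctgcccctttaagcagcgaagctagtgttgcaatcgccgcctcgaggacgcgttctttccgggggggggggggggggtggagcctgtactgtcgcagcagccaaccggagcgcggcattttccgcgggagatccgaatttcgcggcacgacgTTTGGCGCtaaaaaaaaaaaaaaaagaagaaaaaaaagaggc
E2F3, chr6:20401629-20401878, plus strand: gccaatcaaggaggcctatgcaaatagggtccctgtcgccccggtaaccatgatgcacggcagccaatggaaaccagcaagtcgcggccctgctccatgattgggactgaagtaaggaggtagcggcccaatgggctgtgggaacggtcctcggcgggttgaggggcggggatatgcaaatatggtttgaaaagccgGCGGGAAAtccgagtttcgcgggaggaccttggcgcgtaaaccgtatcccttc
RBL1, chr20:37095998-37096247, minus strand: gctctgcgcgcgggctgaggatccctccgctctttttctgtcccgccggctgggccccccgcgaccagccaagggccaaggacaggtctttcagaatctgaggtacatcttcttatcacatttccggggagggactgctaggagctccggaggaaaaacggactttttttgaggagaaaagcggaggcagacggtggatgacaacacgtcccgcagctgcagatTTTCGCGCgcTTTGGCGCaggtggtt
In E2F1 the matches lay 33 to 26 and 20 to 13 bases before the start, and in RBL1 26 to 19 and 16 to 9 bases before it. The match lay 42 to 35 bases before the start in E2F2 and 53 to 46 in E2F3. A further E2F3 start and the windows of E2F4, E2F6 and E2F7 held none of these octamers, and the RB1 window in the table belongs to a start inside the gene and held none either. A match is a string of letters and not a measured binding site.

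**Figure D2:**
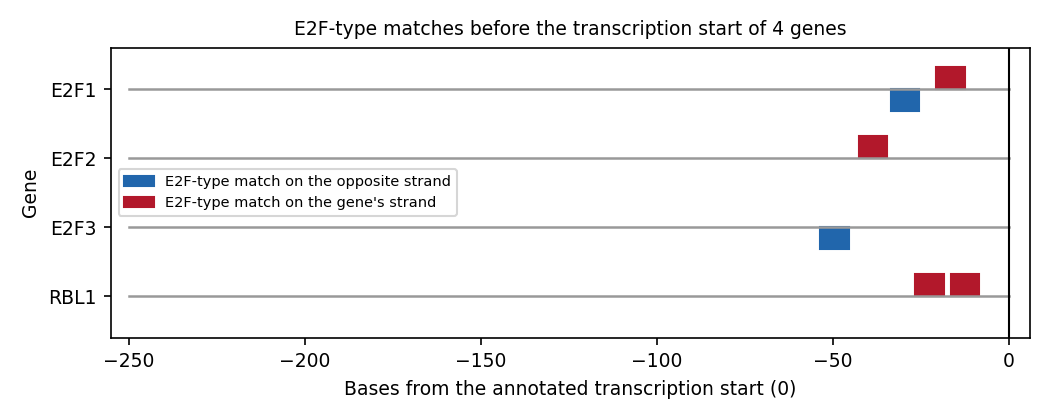
The 250 bases before the annotated start of 4 genes are drawn to scale, the x axis giving bases from the start and each block an E2F-type octamer, above the line on the strand of the gene and under it on the opposite strand. All 6 matches lie within 53 bases of the start, and E2F1 and RBL1 have 2 each.

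Of the activators, E2F2 had the lowest ratio and E2F1 the highest of all 10 genes. The brightest E2F2 probe set, 228361_at, read 50.7 with HOXD9 siRNA and 143 with control siRNA, a log2 ratio of -1.49 or 2.82-fold lower, and -1.19 after centering. By this ratio E2F2 was number 173 from the bottom of 11624 genes. Its other probe sets lay near the background. Probe set 235582_at read 22.6 with HOXD9 siRNA and 21.7 with control siRNA, a log2 ratio of 0.06, and 207042_at read 16.1 with HOXD9 siRNA and 23.8 with control siRNA, at least 1.29-fold lower when taken against the background (1.05-fold after centering). The E2F2 difference thus stood on 1 of 3 probe sets. The mean of the 3 measured log2 ratios was -0.67. It includes 207042_at, for which only a bound holds, so it is no estimate of the E2F2 difference.

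E2F1, the founding member of the family and a partner of RB, gave opposite signs on its probe sets. Probe set 204947_at read 200 with HOXD9 siRNA and 154 with control siRNA, a log2 ratio of 0.38 or 1.30-fold higher. Probe set 2028_s_at read 118 with HOXD9 siRNA and 157 with control siRNA, a log2 ratio of -0.42. These probe sets had nearly the same control siRNA signal and differed by 0.79. The SD at like brightness was 0.28, but it describes a single probe set about the mean of its gene. A difference between probe sets varies more than that. The mean of the E2F1 log2 ratios was -0.02, so the arrays gave no direction for E2F1. After centering they stood at 0.68 and -0.12. E2F3, an activator amplified in some bladder cancers and retinoblastomas, gave like ratios on both of its probe sets. It read 100.5 with HOXD9 siRNA and 122 with control siRNA on the brighter, and 45.6 with HOXD9 siRNA and 57.1 with control siRNA on the dimmer. Its log2 ratios were -0.28 and -0.32, or 0.02 and -0.02 after centering, close to the median of kept probe sets.

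E2F4, the most abundant E2F protein of resting cells in many tissues, read 246 with HOXD9 siRNA and 264 with control siRNA on probe set 38707_r_at. On 202248_at it read 114 with HOXD9 siRNA and 111 with control siRNA. Both log2 ratios, -0.10 and 0.03, were close to 0, and after centering they were 0.20 and 0.33. E2F5, the partner of pocket proteins most like E2F4, was dim. Its brighter probe set gave 29.3 with HOXD9 siRNA and 38.3 with control siRNA, a log2 ratio of -0.39, and the dimmer one 8.58 with HOXD9 siRNA and 9.93 with control siRNA, within the background on both arrays.

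E2F6 represses through Polycomb-type complexes and does not bind pocket proteins. Its 1 probe set read 253 with HOXD9 siRNA and 290 with control siRNA, a log2 ratio of -0.20, or 0.10 after centering. E2F7 and E2F8 are the atypical members, which bind DNA without a DP partner and repress E2F target genes late in S phase. They are close relatives and stood apart on their brightest probe sets, while the dimmer E2F7 probe set lay between. E2F8 read 175 with HOXD9 siRNA and 401 with control siRNA on its 1 probe set, a log2 ratio of -1.20 or 2.29-fold lower, and -0.90 after centering, short of 2-fold. It was number 339 from the bottom of 11624 genes. E2F7 read 501 with HOXD9 siRNA and 540 with control siRNA on probe set 228033_at, a log2 ratio of -0.11. On the dimmer probe set 241725_at it read 51.4 with HOXD9 siRNA and 83.5 with control siRNA, a log2 ratio of -0.70. The brighter E2F7 reading was thus near 0 and the dimmer one lower than the median of kept probe sets, which was -0.28.

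Both pocket protein genes were lower on every kept probe set. RBL1 was read by 3 kept probe sets. On 1555004_a_at it read 119 with HOXD9 siRNA and 222 with control siRNA, a log2 ratio of -0.90. On 205296_at it read 34.2 with HOXD9 siRNA and 173 with control siRNA, a log2 ratio of -2.34 or 5.07-fold lower, and 0.381% of all kept probe sets had a ratio as low. On 1559307_s_at it read 53.5 with HOXD9 siRNA and 118 with control siRNA, a log2 ratio of -1.14. After centering the 3 ratios were -0.60, -2.04 and -0.84, and their mean as deposited was -1.46. The dimmest RBL1 probe set, below the signal filter, read 17.9 with HOXD9 siRNA and 18.6 with control siRNA, next to the background of 18.4. RBL1 was thus lower on all 3 probe sets above the filter, by amounts that differed by 1.44 on the log2 scale.

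RB1, the retinoblastoma tumor suppressor gene, read 356 with HOXD9 siRNA and 579 with control siRNA on its brighter probe set, a log2 ratio of -0.70. On the dimmer one it read 48.6 with HOXD9 siRNA and 102 with control siRNA, a log2 ratio of -1.06 or 2.09-fold lower. After centering these were -0.40 and -0.76, so RB1 was lower on both under either scale, and past 2-fold on the dimmer one as deposited but not after centering. RBL2, which encodes p130, the remaining pocket protein, was not among the 10 genes and was looked at after its values had been seen. The brighter RBL2 probe set gave 404 with HOXD9 siRNA and 595 with control siRNA, a log2 ratio of -0.56, or -0.26 after centering. The dimmer one gave 145 with HOXD9 siRNA and 162 with control siRNA, a log2 ratio of -0.16 that turned to 0.14 after centering.

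At the level of probe sets, 5 of the 19 kept ones were lower by more than 2-fold, namely 1 each of E2F2, E2F8 and RB1 and 2 of RBL1, and 0 were higher. Among all 27307 kept probe sets 6.69% were lower and 0.615% higher. After centering, 2 of the 19 were lower, 205296_at of RBL1 and 228361_at of E2F2, against 2.94% of all kept probe sets, and 0 were higher, against 1.51%. A further count took genes with 2 or more kept probe sets, of which any 1 was lower by more than 2-fold. This held for 3 of 7 genes of the family and for 14.7% of 6081 genes. With 10 genes these counts are small, and they describe the 2 arrays.

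**Figure D3:**
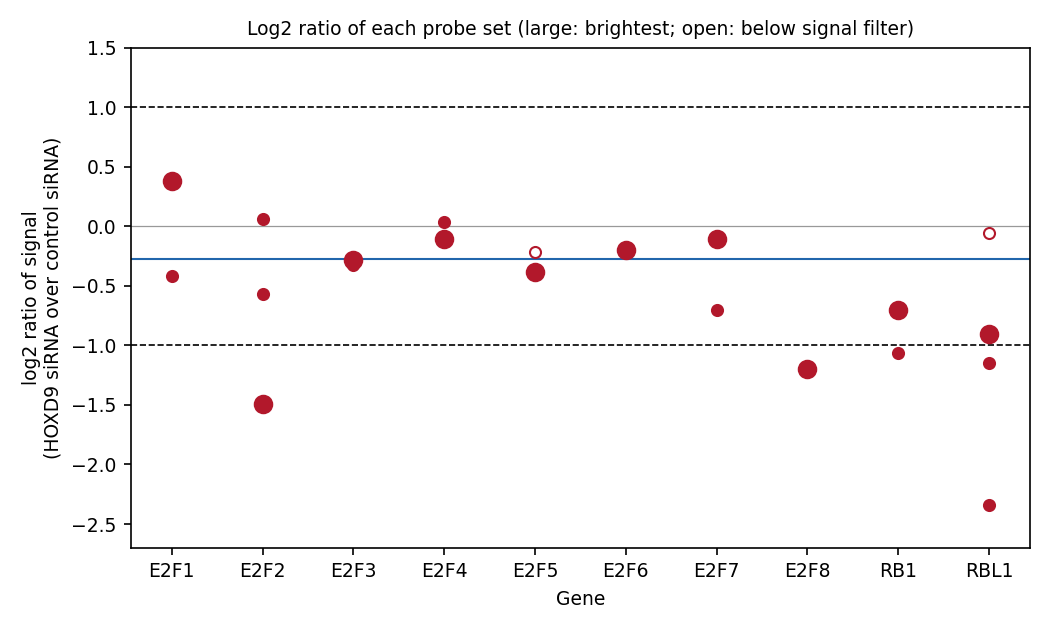
Points are single probe sets, placed by gene (x axis) and by log2 ratio of HOXD9 siRNA over control siRNA (y axis), large for the brightest probe set of the gene and open where it was below the signal filter. Dashed lines mark 2-fold and the blue line the median of kept probe sets, -0.28. The kept probe sets of RBL1, E2F8 and RB1, the brightest one of E2F2 and the dimmer one of E2F7 lie at about -0.70 or lower. E2F1 has a point on each side of 0, and E2F3, E2F4 and E2F6 lie near the blue line or above it.

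The genes around the family were taken from 9 lists, ordered by their role. The DP proteins are the partners that E2F1 to E2F6 need to bind DNA. Of 3 DP genes 2 were above the filter, and as deposited both lay near 0 (median -0.01, or 0.29 after centering). TFDP1 read 2079 with HOXD9 siRNA and 2237 with control siRNA, a log2 ratio of -0.11 (0.19 after centering), and TFDP2 read 187 with HOXD9 siRNA and 176 with control siRNA, a log2 ratio of 0.09 (0.39 after centering). The probe sets of TFDP2 ranged from -1.07 to 0.09 with a mean of -0.52, and without probe sets ending in _s_at, which can bind several transcripts, the brightest gave -0.64.

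The MuvB core joins pocket proteins and E2F4 in the DREAM complex of resting cells, and B-MYB and FOXM1 in dividing ones. None of 7 kept genes of 8 passed 2-fold, against 4.95% of all genes lower and 0.516% higher. Their median log2 ratio was -0.45 (-0.15 after centering), against -0.25 over all genes. RBBP4, a histone-binding subunit, had -0.65, MYBL2, which encodes B-MYB, -0.62, the related MYBL1 -0.53 and FOXM1, an activator of mitotic genes, -0.45.

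Of the kinases that phosphorylate pocket proteins and their cyclins, 2 of 14 kept genes were lower by more than 2-fold, against 4.95% of all genes, and 0 were higher, against 0.516%. CCND3, which encodes the CDK4 and CDK6 partner cyclin D3, read 228 with HOXD9 siRNA and 547 with control siRNA, a log2 ratio of -1.26. CCNE2, a cyclin of CDK2 and itself an E2F target, read 194 with HOXD9 siRNA and 424 with control siRNA, a log2 ratio of -1.13. CDK1, the mitotic kinase, had -0.73, and MNAT1, a subunit of the CDK-activating kinase, was the highest at 0.19. The median of the list was -0.41 (-0.11 after centering), and after centering 0 of the 14 genes were past 2-fold, against 2.31% of all genes lower and 1.17% higher. Of 7 CDK inhibitor genes 4 were kept and none passed 2-fold, against 4.95% of all genes lower and 0.516% higher. Their median was -0.17 (0.13 after centering), with CDKN2D at 0.16, CDKN1A, which encodes p21, at -0.003, CDKN1B, which encodes p27, at -0.34 and CDKN2A at -0.47. The CDKN2A signals, 19.5 with HOXD9 siRNA and 26.9 with control siRNA, lay close to the background. The HOXD9 siRNA signal alone was below the filter of 19.8. No direction is therefore read from the CDKN2A ratio, though it counts in the median of the list.

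Corepressors and chromatin enzymes that bind pocket proteins had a median of -0.27 (0.03 after centering) over 20 genes. On their brightest probe sets 0 passed 2-fold in either direction, against 4.95% of all genes lower and 0.516% higher. Another kept probe set of CBX5 stood at -1.15. The lowest were CBX5, which encodes the heterochromatin protein HP1 alpha, at -0.84, and SUV39H1, a histone H3 lysine methyltransferase, at -0.83. PRMT5, an arginine methyltransferase, at -0.09 and CTBP1, a corepressor, at -0.06 were the highest. Genes of the E2F6 complex also had 0 of 14 past 2-fold, against the same shares of all genes, and a median of -0.31 (-0.01 after centering). Other kept probe sets of some of these genes were past 2-fold lower, down to -1.13. The lowest were CBX1 at -0.93, MAX, the DNA-binding partner of MYC and MGA, at -0.92, PCGF6, a Polycomb subunit of this complex, at -0.72 and EZH2, the methyltransferase of Polycomb complex PRC2, at -0.64. For MAX the brightest probe set not ending in _s_at or _x_at stood at 0.24, so that MAX had no single direction.

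The list of G1/S genes activated by E2F factors, most of them for DNA synthesis, had the lowest median of the 9. Its median log2 ratio over 37 kept genes of 39 was -0.66 (-0.36 after centering). Of the 37, 5 were lower by more than 2-fold, against 4.95% of all genes, and 0 were higher, against 0.516%. Of the 37 genes, 35 lay below the median of kept probe sets, -0.28, as did 46.5% of all genes. CDT1, which loads the replicative helicase, read 204 with HOXD9 siRNA and 635 with control siRNA, a log2 ratio of -1.63, and was the 1 gene of the list still past 2-fold after centering, when 2.31% of all genes were that much lower. Its other kept probe set gave -0.69. CCNE2 stood at -1.13 as above, and the helicase loader CDC6 read 154 with HOXD9 siRNA and 335 with control siRNA, a log2 ratio of -1.12. POLE, which encodes the catalytic subunit of DNA polymerase epsilon, read 75.6 with HOXD9 siRNA and 163 with control siRNA, a log2 ratio of -1.11. The remaining gene past 2-fold was CDC45, named after its value was seen, a subunit of the active helicase at -1.09. CHAF1B, a subunit of the histone chaperone CAF-1, was the highest at 0.28, and was likewise named after its value was seen. DNA replication genes were known to be low on these arrays when the list was drawn up, so its direction is no independent evidence.

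Genes of G2 and mitosis that E2F factors share with DREAM had a median of -0.39 (-0.09 after centering) over 22 genes. On their brightest probe sets 0 passed 2-fold, against 4.95% of all genes lower and 0.516% higher. Other kept probe sets of some of these genes were past 2-fold lower, down to -1.74. CDC25C, a phosphatase that activates CDK1, had -0.78, CDK1 -0.73, the kinase gene AURKB 0.01 and HMMR, a spindle-associated protein, 0.21. Of 23 genes that act on the turnover or activity of E2F and RB, 1 was lower by more than 2-fold, a share no larger than the 4.95% of all genes, and the median was -0.29 (0.01 after centering). The 1 gene was FBXO5, which encodes the anaphase-promoting complex inhibitor EMI1 and is an E2F target, which read 256 with HOXD9 siRNA and 565 with control siRNA, a log2 ratio of -1.14. Its dimmer probe set gave -0.48. PURA, a DNA-binding protein that binds RB, stood at -0.91, the acetyltransferase EP300 at -0.70 and PPP1CB, a subunit of a phosphatase that acts on RB, at 0.10.

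**Figure D4:**
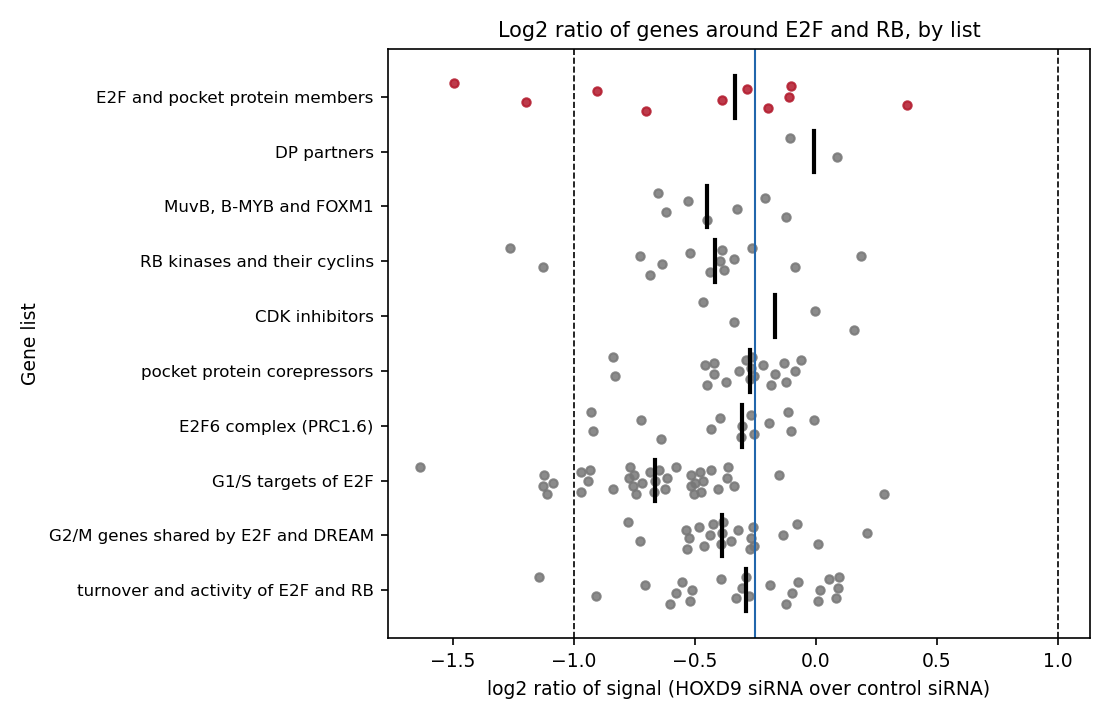
Points are genes, placed by list (y axis) and by the log2 ratio of their brightest kept probe set, HOXD9 siRNA over control siRNA (x axis), with the E2F and pocket protein genes in red, black bars at list medians, dashed lines at 2-fold and the blue line at the median of all genes, -0.25. The G1/S targets lie farthest to the left, with a median of -0.66, whereas the E2F and pocket protein genes spread from -1.49 to 0.38.

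The E2F-type octamers were also counted over all kept genes with a promoter window, a gene taking its window with the most matches. This comparison was not planned beforehand. The 8973 genes without a match had a median log2 ratio of -0.25 (0.05 after centering) and 4.49% were lower by more than 2-fold. The 519 genes with 1 match had -0.31 (-0.01 after centering) and 5.78%. The 27 genes with 2 or more matches, E2F1 and RBL1 among them, had -0.50 (-0.20 after centering). Of these 27, 2 (7.41%) were lower by more than 2-fold, against 4.57% of all genes with a window. Of the G1/S target genes with a window, 16 of 33 held a match, against 5.74% of all kept genes with a window. The median of the 16 was -0.67, and that of the others in the list -0.62. These 16 are also among the genes with matches counted above. The list was made of E2F targets and with low replication genes known, so neither its share of matches nor its medians are independent evidence. RBL1 and E2F1, with 2 matches each at like distances from the start, had log2 ratios of -0.90 and 0.38 on their brightest probe sets, but the other E2F1 probe set stood at -0.42, so no direction of E2F1 can be set against that of RBL1.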

How the data were processed

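U87 cells were transfected with HOXD9 siRNA-2 or control siRNA, and 1 Affymetrix U133 Plus 2.0 array was made for each. The table deposited by the authors gives a linear signal intensity for each probe set. GCOS, the Affymetrix software, is named in the submitters' processing notes. How the arrays were scaled is not given in the sources used here, nor are detection calls, so a shift between arrays can move all ratios alike. After 62 control probe sets were set aside, 54613 remained. Of these, 41091 had 1 gene in the platform annotation, of which 41037 matched the RefSeq gene table of GRCh38.p14 by Entrez number. A further 1801 had several genes and 11721 were unlisted. Ratios were computed from the signals as deposited, a gene took its brightest kept probe set, and the threshold was 2-fold. Where 1 signal lay within the background, the fold is given as a bound. Promoter sequences were taken from RefSeq (GRCh38.p14).

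The 10 genes and the 9 lists were chosen with earlier results of these data known. Named are all 10 genes, HOXD9, GAPDH, and in each list up to 4 genes farthest from the median of kept probe sets. Outside this rule, RBL2, CDC45, CHAF1B and the marker genes are named. Alternatives were centering, quantile normalization, loess (fraction 0.3), no filter, a stricter filter (70th percentile), a floor on low signals (20th percentile of each array), omission of _x_at and _s_at probe sets, and the mean of log2 ratios per gene. The code was tested on simulated data. Python 3.11.15, numpy 2.4.6, pandas 2.3.3, statsmodels 0.14.6 and matplotlib 3.10.9 were used.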

Additional observations from a re-analysis of the deposited data

How the results depend on the processing

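The number of the 10 genes lower by more than 2-fold was 2 as deposited and 1 after centering, quantile normalization or loess, when E2F8 stood at -0.90 under each. Averaging probe sets also gave 2, but RBL1 (-1.46) in place of E2F2 (-0.67). The E2F2 mean includes dim probe sets, 1 of them with its HOXD9 siRNA signal within the background. Of the kept probe sets of the family, 5 were lower as deposited, 2 under each of these 3 scalings and 3 without _x_at and _s_at probe sets. E2F3, E2F4, E2F6 and E2F7 had negative log2 ratios as deposited and positive ones under the 3 scalings, from 0.02 to 0.20, and the mean of the E2F1 probe sets was -0.02. The median of the family was -0.03 after centering, -0.01 after loess and 0.01 after quantile normalization. The stricter filter removed E2F5, and leaving out _x_at and _s_at probe sets removed E2F3 and E2F5. No gene of the family was higher by more than 2-fold under any of the 8 alternatives.

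Over all genes, 575 were lower and 60 higher as deposited, 268 and 136 after centering, 260 and 146 after quantile normalization, 261 and 144 after loess, 3114 and 1766 without the filter, and 210 and 0 with the stricter one. Over all kept probe sets, 1826 were lower and 168 higher as deposited, 802 and 413 after centering, 759 and 437 after quantile normalization, 764 and 430 after loess, 10262 and 5750 without the filter, and 482 and 2 with the stricter one. The medians of the 9 lists moved by less than the probe set SD of 0.41 under the alternatives that gave a value. That SD describes single probe sets, so it is a wide limit for the median of a longer list and no test of its stability. Centering adds 0.30 to every log2 ratio, so no median could move by more under it. After centering the medians of the DP partners, CDK inhibitors, pocket protein corepressors and turnover genes changed from negative to positive. Those of the remaining lists stayed negative, the G1/S targets at -0.36 and the E2F6 complex at -0.01. No paired analysis was possible because each condition had 1 array. The signals of E2F5 and of the dimmer E2F2 probe sets lay close to the background, which limits their ratios.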
